A study of Mus musculus with 2 samples.

Results

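Kinesin genes were taken as the protein-coding genes of GENCODE M21 whose symbol starts with Kif and a digit or with Kifc, which gave 43 of 21951 protein-coding genes. They were read against the list of EGR1 peaks from mouse frontal cortex. The tissue came from 129SvEv/C57BL/6N F1 hybrid males (strain C57BL6N/129SvEv in the labels) at 6 weeks of age, for which the labels name no engineered allele and no treatment. EGR1 was profiled by chromatin immunoprecipitation and sequencing (ChIP-seq) in 2 replicates of pooled cortices, which the authors merged into 1 list of 12014 peaks, and input DNA was the control, not analysed here as a separate set of values. A peak was linked to a gene when its centre lay in the gene body or within 10 kb of an annotated transcription start site (TSS). Of the 12014 peaks, 42 were linked to kinesin genes.

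Kinesins are motor proteins that walk along microtubules using ATP. In neurons they carry vesicle precursors, mitochondria, receptors and mRNA along axons and dendrites, while in dividing cells other members of the family build the spindle and move chromosomes. EGR1 is a zinc-finger transcription factor of the immediate early class, which neurons induce with activity and which binds GC-rich elements. The genes were divided into 16 kinesins of axonal and dendritic transport, 14 kinesins of mitosis and 13 further genes of the name rule. The last set mixes motors of cilia and signalling with Kif2a, which shortens microtubules, and with Kif1bp, which encodes a kinesin-binding protein and no motor. Each peak carries an irreproducible discovery rate (IDR), a measure of how well the replicates ranked it alike that is read like a q-value, with low values for reproducible peaks. It is not a measure of how much EGR1 was bound, and the list holds no level of any transcript, so neither the tissue's markers nor expression of the kinesins could be examined.

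The sequences under the most reproducible peaks near kinesin starts are shown because they let the bases of these sites be read directly, as far as they are printed. They are the 3 axonal peaks, 2 mitotic peaks and 2 further peaks with the lowest IDR within 1 kb of a TSS of their gene, on the plus strand of mm10, 5′ to 3′, cut where the peak runs into an annotated UTR. Capitals mark an EGR1 response element, written as GCGTGGGCG or GCGGGGGCG and searched on both strands (the reverse complement appears where the element lies on the minus strand). For Kif1b, which carries mitochondria and synaptic vesicle precursors, the stretch is chr4:149307840-149308014. Kif5c, a neuronal heavy chain of conventional kinesin, has chr2:49619925-49620003, in its first kilobase. Kif17, the dendritic motor for NMDA receptor cargo, has chr4:138250214-138250402. In the mitotic set, Kif20b, a motor of cytokinesis, has chr19:34922184-34922360, and Kif18a, which dampens chromosome movement at the metaphase plate, has chr2:109280525-109280608. The Kif18a stretch is only 84 of the 264 bases of its peak and holds no CpG, while the whole peak was 62.9% GC. Kif26a, an atypical kinesin without ATPase activity, has chr12:112146071-112146207, and Kif2a has chr13:107021924-107022011.
Kif1b: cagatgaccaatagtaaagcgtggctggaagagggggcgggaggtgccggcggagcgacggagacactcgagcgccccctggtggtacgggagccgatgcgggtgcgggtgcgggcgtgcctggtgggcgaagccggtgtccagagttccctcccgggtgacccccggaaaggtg
Kif5c: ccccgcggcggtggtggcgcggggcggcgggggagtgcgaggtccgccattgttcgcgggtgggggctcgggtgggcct
Kif17: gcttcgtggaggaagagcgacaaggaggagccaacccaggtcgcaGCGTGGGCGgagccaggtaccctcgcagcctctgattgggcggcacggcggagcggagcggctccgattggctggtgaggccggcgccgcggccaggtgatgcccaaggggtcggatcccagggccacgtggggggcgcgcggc
Kif20b: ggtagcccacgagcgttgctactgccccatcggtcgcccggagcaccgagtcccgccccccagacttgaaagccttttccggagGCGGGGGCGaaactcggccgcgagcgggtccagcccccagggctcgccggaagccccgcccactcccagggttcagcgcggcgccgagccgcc
Kif18a: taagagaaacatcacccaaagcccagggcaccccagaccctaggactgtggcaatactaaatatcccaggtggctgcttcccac
Kif26a: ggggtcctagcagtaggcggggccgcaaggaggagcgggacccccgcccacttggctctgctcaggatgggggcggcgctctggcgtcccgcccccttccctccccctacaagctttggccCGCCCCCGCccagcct
Kif2a: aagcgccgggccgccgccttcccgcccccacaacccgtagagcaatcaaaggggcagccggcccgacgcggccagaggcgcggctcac

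An exact element stands in the Kif17, Kif20b and Kif26a stretches and in none of the other 4. The Kif1b stretch holds 3 sites within 1 base of the element, while the Kif5c and Kif2a stretches hold 1 site each and the Kif18a stretch holds 0. Over its full width the Kif17 peak held 3 exact elements, the highest number in any kinesin peak, but those centred 29 and 35 bp from the peak centre overlap. The Kif16b promoter peak held 1 in a part not printed. The 3 remaining kinesin peaks with an exact element lie away from the start of their own gene. Those of Kif5a and Kif22 nevertheless lay 516 bp and 31 bp from a TSS of another gene, Dctn2 and Prrt2. The sequences of all 3 are shown too. These were picked after their content was known. They are an intron of Kif13a, which carries mannose-6-phosphate receptor vesicles (chr13:46817132-46817381), the flank upstream of Kif5a, another neuronal heavy chain (chr10:127266842-127266964), and the flank downstream of Kif22, a chromosome-arm motor (chr7:127021212-127021279, again without its UTR part).
Kif13a: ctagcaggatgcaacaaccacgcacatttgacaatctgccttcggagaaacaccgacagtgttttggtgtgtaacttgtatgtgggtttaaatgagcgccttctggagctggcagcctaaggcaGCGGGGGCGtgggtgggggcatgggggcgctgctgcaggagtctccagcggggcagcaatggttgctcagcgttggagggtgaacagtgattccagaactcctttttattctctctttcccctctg
Kif5a: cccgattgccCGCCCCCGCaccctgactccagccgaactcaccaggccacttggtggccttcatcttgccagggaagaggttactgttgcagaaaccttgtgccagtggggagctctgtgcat
Kif22: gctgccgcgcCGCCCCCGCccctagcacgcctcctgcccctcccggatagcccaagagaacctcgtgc

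In all, 7 of 42 kinesin peaks held an exact element (16.7%, 95% Wilson interval 8.32 to 30.6), beside 1987 of 11938 peaks on assembled chromosomes (16.6%). With 1 mismatch allowed the shares were 73.8% and 69.8%. The element was thus about as frequent under kinesin peaks as in the list at large. In the RefSeq promoters (250 bases before to 50 after the start, GRCm38.p6), 33 of 43 kinesin genes matched and 3 of the 33 held an exact element, namely Kif16b, Kif20b and Kif26a. That is 9.09%, against 5.49% of 16489 other promoters, a difference that rests on 3 promoters and was not tested. All 3 genes had a peak within 1 kb of a TSS, as did 681 of the 906 other genes with an exact element. Such a peak was found for 17 of the 33 kinesin genes and 4878 of the 16489 others. Among these, 3 of 17 kinesin promoters and 681 of 4878 other promoters held an exact element. The match describes these letters only.

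The axonal kinesins were linked to EGR1 peaks more often than the mitotic kinesins. Both lists were chosen with earlier results of these data known, so the shares describe the lists and are no independent support for a difference. Of the 43 kinesin genes, 24 were linked (55.8%, 95% Wilson interval 41.1 to 69.6), beside 39.5% of the 21908 other protein-coding genes. The axonal set had 13 of 16 linked (81.3%, 57.0 to 93.4), the mitotic set 5 of 14 (35.7%, 16.3 to 61.2) and the further genes 6 of 13 (46.2%, 23.2 to 70.9). The mitotic share lay near the background and the axonal interval lay above it. The axonal and mitotic intervals overlapped between 57.0 and 61.2%, and the difference was not tested, since there is 1 merged list and genes are not replicates. Intervals here cover counting of genes only.

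Close to the start the same order of axonal over mitotic held. A peak centre within 1 kb of a TSS was found for 19 of 43 kinesin genes (44.2%), beside 28.1% of other protein-coding genes. Shares at like CpG content and gene length are given further below. It was found for 11 of 16 axonal genes (68.8%, 44.4 to 85.8), for 5 of 14 mitotic genes (35.7%) and for 3 of 13 further genes (23.1%, 8.18 to 50.3). With only peaks at an IDR of 0.001 or less, the axonal share linked was 8 of 16 (50%) and the mitotic share stayed 5 of 14, beside 28.9% of other genes. Within 1 kb these counts were 6 of 16 (37.5%) and 4 of 14 (28.6%), beside 20.4%, so most of the distance between the sets rests on peaks of higher IDR. Counting all linked peaks, in the gene body or within 10 kb of a TSS, 9 of 16 axonal genes (56.3%) and 1 of 14 mitotic genes (7.14%) had 2 or more. The share in other protein-coding genes was 13.7%. This count takes in the gene body and was not set beside genes of like length. Of the 19 kinesin genes with a near peak, 4 shared it with another protein-coding TSS within 1 kb (21.1%), beside 21.6% in other genes. These were 2 of 11 axonal genes (Kif17 and Kifc2) and 2 of 5 mitotic genes (Kif18a and Kif22). Without peaks at another protein-coding start, 9 of 16 axonal genes (56.3%) and 3 of 14 mitotic genes (21.4%) had a near peak, beside 22.4% of other genes.

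**Figure D1:**
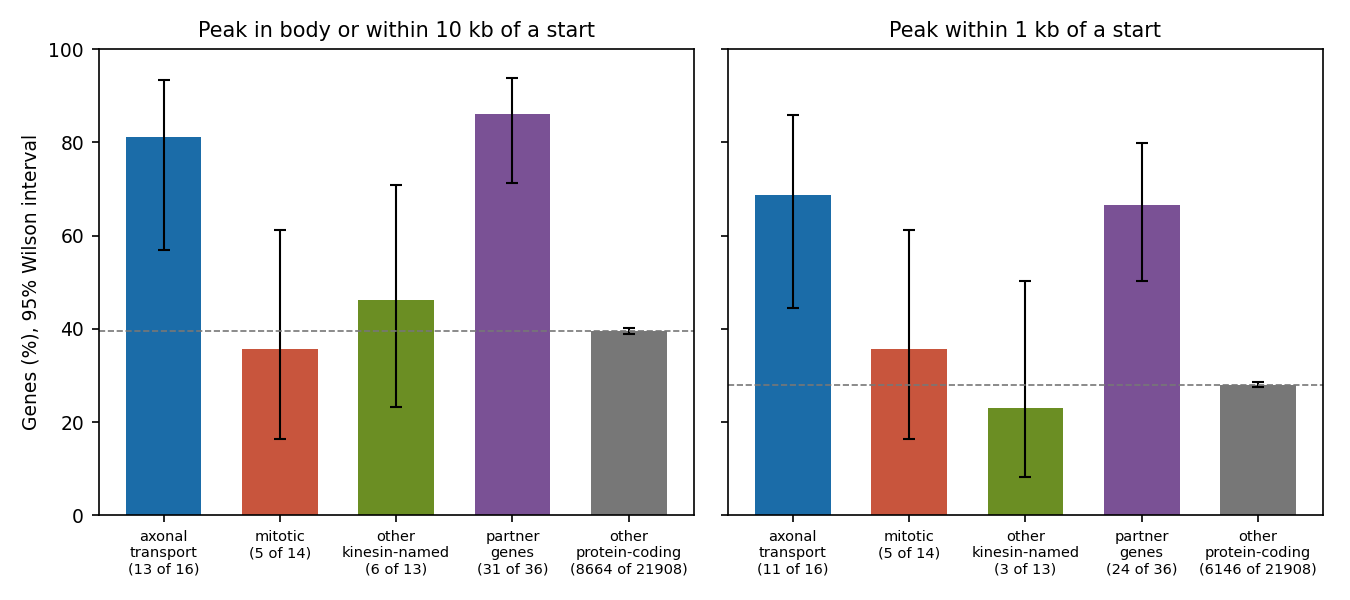
Share of genes (%) with an EGR1 peak in the gene body or within 10 kb of a start (left) and within 1 kb of a start (right), with 95% Wilson intervals and the count of genes under each bar. The dashed line marks other protein-coding genes (39.5% and 28.1%), above which the axonal bars (81.3% and 68.8%) stand while the mitotic bars (35.7% in both) lie near it.

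Kinesin-1, the conventional motor, has 3 heavy-chain genes, of which 2 were linked. Kif5c had a peak 666 bp into the gene with an IDR of 2.29e-07, and a second in an intron with 2.67e-07. Kif5a had no peak within 1 kb of a TSS. Its 2 peaks lay in the 3′UTR (IDR 6.48e-05) and 3555 bp upstream (IDR 3.9e-07), and the upstream one lay 516 bp from the TSS of Dctn2, which encodes a dynactin subunit. Both Kif5a peaks were nearer to a TSS of another gene than to one of Kif5a. Kif5b, the heavy chain found in most tissues, was not linked, and its nearest peak lay 78424 bp from a TSS.

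Kinesin-2, which carries cargo along axons and within cilia, had 3 of 4 genes linked. The shared subunit Kif3a had 1 peak 42 bp inside a start, at chr11:53567444-53567693, with an IDR of 0.0104, and a start of the noncoding gene A430108G06Rik lay within 1 kb of it. Its partner Kif3b had none, with the nearest peak 49773 bp away. Kif3c, the partner enriched in neurons, had 1 peak in a coding exon 890 bp from its start (chr12:3365956-3366205, IDR 0.000649) and 1 in the downstream flank. Kif17 had the most reproducible of the kinesin-2 peaks, centred 57 bp upstream of its start over chr4:138250214-138250542, with an IDR of 1.28e-06. That peak was also 25 bp from a TSS of Sh2d5, so it lay between a pair of starts and belongs to neither gene alone by position. A further Kif17 peak lay in an intron (IDR 0.00133).

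Kinesin-3 carries synaptic vesicle precursors and endosomes. The peak with the lowest IDR at a kinesin start was that of Kif1b, 234 bp upstream, with 1.4e-07. Kif1a, the main motor of synaptic vesicle precursors, had a peak 33 bp upstream of its start (chr1:93101853-93102116, IDR 0.000167) and another in an intron 1173 bp downstream (IDR 0.00663). Kif1c had 1 intronic peak 754 bp from a start, at chr11:70701273-70701536, with an IDR of 0.0021. Kif16b, a motor of early endosomes, had 1 peak centred 2 bp from its start, at chr2:142901398-142901661, with an IDR of 0.00256. Kif13a had 2 intronic peaks with IDRs of 0.00119 and 0.00232 and none near a start, and Kif13b had none within 56974 bp. The mitotic member of this family, Kif14, was not linked. Thus the kinesin-3 starts ranged from one of the most reproducible peaks of the family to no peak at all.

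Kif21b, a kinesin-4 motor found in dendrites, was the kinesin gene with the most peaks, 5 in all. Only 0.799% of other protein-coding genes had 5 or more, though the gene is named here because of its count. Its promoter peak lay 27 bp upstream of the start (chr1:136131237-136131487, IDR 8.68e-06), with a start of the noncoding gene Gm15850 within 1 kb. The 2 most reproducible of all kinesin peaks were both inside this gene, 9020 bp and 12345 bp downstream of a start, at chr1:136140392-136140557 (IDR 4.44e-08) and chr1:136143709-136143890 (IDR 7.01e-08). They ranked 355 and 640 of 12014 by IDR. Another lay 2781 bp upstream, at chr1:136128516-136128701 (IDR 1.55e-07), and the last in an intron 2296 bp downstream, at chr1:136133619-136133882 (IDR 0.000106). Every one of the 5 was nearest to a Kif21b start among protein-coding genes. Its close relative Kif21a had 2 less reproducible peaks, 5 bp upstream and 457 bp downstream of a start, at chr15:91049719-91049982 (0.0171) and chr15:91049237-91049486 (0.00983).

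Kifc2, a minus-end-directed motor of the nervous system, had 4 peaks, but in a crowded stretch. Peaks at chr15:76659676-76659939 (IDR 0.00329) and chr15:76660548-76660811 (IDR 0.00177) lay 51 bp and 20 bp upstream of a Kifc2 start, and both were also within 1 kb of a Cyhr1 TSS. The more reproducible pair lay farther off, at chr15:76656912-76657006 (IDR 2.9e-07), 39 bp from Cyhr1, and chr15:76671700-76671846 (IDR 1.32e-06), 126 bp from Ppp1r16a. By nearest TSS, those 2 belong to the neighbours.

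**Figure D2:**
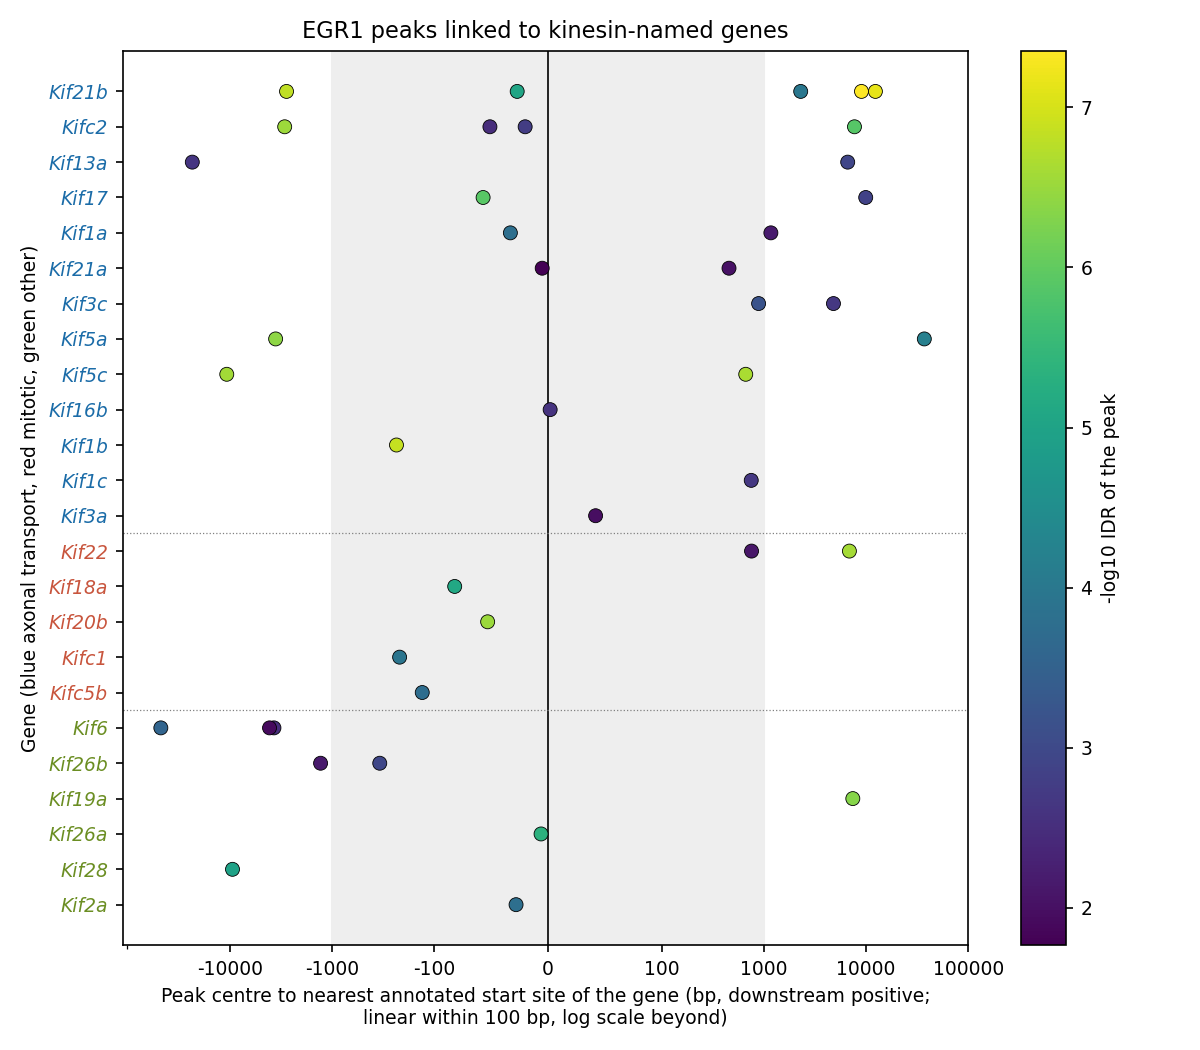
Distance in bp of each of the 42 linked peaks from the nearest annotated start of its gene (downstream positive, linear within 100 bp and logarithmic beyond, shaded within 1 kb), one row per linked gene, with the colour giving −log10 of the IDR. Kif21b carries 5 peaks, the 2 most reproducible of them 9020 bp and 12345 bp downstream, whereas 4 of the 5 linked mitotic genes have a single peak at the promoter.

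Of the 5 linked mitotic kinesins, 4 had a single peak in the promoter and Kif22 had 2 peaks elsewhere. Kif20b had 1 peak 53 bp upstream (chr19:34922184-34922433, IDR 3.08e-07), the most reproducible near a mitotic start. For Kif18a the peak lay 82 bp upstream (chr2:109280525-109280788, IDR 7.8e-06), and only 46 bp from a TSS of Mettl15, the gene on the other side. Kif22 had 2 peaks beyond its 3′ end. The one within 1 kb of a Kif22 TSS, chr7:127027226-127027489 (IDR 0.00777), was near the start of a short transcript, 15114 bp from the 5′ end of the gene and 320 bp from a TSS of Maz, and the other (IDR 2.5e-07) lay 31 bp from Prrt2 and within 1 kb of Gm42742. None of the 6 mitotic peaks lay inside the body of the gene it was linked to, whereas 11 of the 27 axonal peaks lay in introns of theirs. Bodies of neighbouring genes were not considered here. With gene bodies alone, 12 of 16 axonal and 0 of 14 mitotic genes were linked, beside 23.8% of other genes. The median gene was 49071.5 bp long in the axonal set and 26935.5 bp in the mitotic set.

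Kifc1, a spindle motor of the kinesin-14 family, had 1 peak 218 bp upstream (chr17:33890755-33891004, IDR 0.000115), and its near-copy Kifc5b had 1 peak 131 bp upstream (chr17:26916836-26917085, IDR 0.000184). The 250 bases under the Kifc5b peak aligned to the stretch at the Kifc1 start with 238 identical bases, 12 mismatches and 10 gap positions (95.2% identity), and 172 bases of that alignment lay under the Kifc1 peak. The middle 31 bases of the Kifc5b peak occurred 2 times on the assembled chromosomes, the second copy under the Kifc1 peak. Reads from the pair may therefore be shared, and the 2 genes are not certainly 2 separate observations. The middle 31 bases of the other 41 kinesin peaks occurred once each. Without Kif2b and Kifc5b, the mitotic set had 4 of 12 linked (33.3%).

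The other 9 mitotic genes were not linked. They are Kif11, which slides spindle poles apart, Kif23 and Kif20a of the central spindle, Kif4 and Kif15 of chromosomes and spindle, Kif14 of cytokinesis, Kif18b and Kif2c, which shorten microtubules, and Kif2b. The nearest peak to a TSS of these genes lay 44195 to 890078 bp away, with a median of 90837 bp. For the 19 unlinked kinesin genes together the range was 27410 to 890078 bp, while no linked gene had its nearest peak more than 9387 bp from a TSS (Kif28). The link was thus not decided by peaks just outside the 10 kb window.

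Among the further genes, Kif26a had a peak 6 bp upstream of its start (chr12:112146071-112146334, IDR 4.55e-06), with 1 exact element. Its relative Kif26b had 2, at chr1:178528660-178528909 (IDR 0.00108) and chr1:178527709-178527958 (IDR 0.00698), 341 bp and 1292 bp upstream. Kif2a had 1 peak 28 bp from a start (chr13:107021924-107022187, IDR 0.000167), with a start of the noncoding gene 3830408C21Rik within 1 kb. Kif6, a ciliary kinesin of a long gene, had 3 intronic peaks, at chr17:49666860-49667115 (IDR 0.00027), chr17:49710286-49710549 (IDR 0.00311) and chr17:49883426-49883675 (IDR 0.0121), none within 1 kb of a TSS. Kif19a, a motor that sets the length of cilia, had 1 peak 7421 bp from its own start but 507 bp from Btbd17 (IDR 4.7e-07), and Kif28 had 1 intronic peak (IDR 1.02e-05). Kif7, Kif27, Kif9, Kif12, Kif24, Kifc3 and Kif1bp were not linked.

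The kinesin peaks resembled the list at large in reproducibility. Their median IDR was 0.000167 beside 0.000321 for all 12014 peaks, and 25 of 42 (59.5%) had an IDR of 0.001 or less, beside 59.6%. The 21 peaks within 1 kb of a kinesin TSS had a median of 0.000184, higher than the 7.11e-05 of all 6636 peaks within 1 kb of a protein-coding TSS. The 21 farther from their own kinesin start had a median of 6.48e-05, but 5 of them lay within 1 kb of a start of Dctn2, Cyhr1, Ppp1r16a, Prrt2 or Btbd17. The 16 farther than 1 kb from every protein-coding TSS had a median of 0.00073, beside 0.00114 for the 5302 such peaks of the list. Of the 42 kinesin peaks, 4 (9.52%) were among the 1202 of lowest IDR in the list, beside 10.0% of all peaks. All 4 were among the 27 axonal peaks, 1 from Kif1b and 3 from Kif21b. No test was made of these medians.

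**Figure D3:**
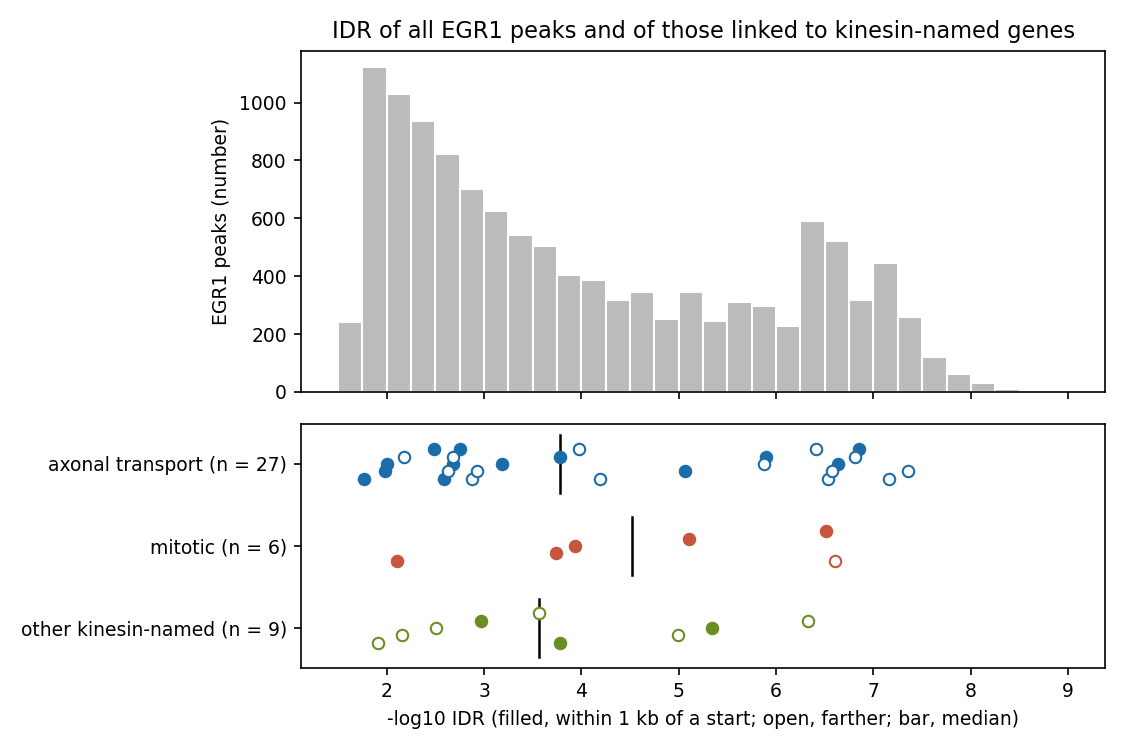
Number of EGR1 peaks by −log10 IDR (top, all peaks) and the −log10 IDR of each peak linked to axonal (n = 27), mitotic (n = 6) and other kinesin-named genes (n = 9) below, filled within 1 kb of a start and open farther away, with a bar at the median. The kinesin peaks spread over the range of the whole list, and the highest values are 2 axonal peaks of Kif21b away from the start.

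CpG content at the start was set beside the links, since 58.9% of other protein-coding genes with a CpG-rich start were linked and 23.2% of those with a CpG-poor start. CpG-rich means an observed to expected CpG ratio of at least 0.6 within 500 bp of the gene's 5′ end, which held for 12 of 16 axonal and 13 of 14 mitotic genes, beside 45.8% of other protein-coding genes. Median ratios were 0.72 for axonal, 0.80 for mitotic and 0.55 for other genes. Mitotic starts were thus at least as CpG-rich as axonal starts. Among CpG-rich starts, 11 of 12 axonal genes were linked, 5 of 13 mitotic genes (38.5%) and 20 of 34 kinesin genes (58.8%), the last beside the 58.9% of other genes. Kinesins with CpG-rich starts were thus linked about as often as other genes with such starts, with the axonal share above that value and the mitotic share below it. Of the 9 kinesins with CpG-poor starts, 4 were linked (44.4%), beside 23.2% of other genes of that class. A peak within 1 kb of a TSS was found for 17 of 34 kinesins with CpG-rich starts (50%), beside 47.0% of other genes of that class. In the sets it was found for 9 of 12 axonal (75%) and 5 of 13 mitotic genes (38.5%). With CpG-poor starts it was found for 2 of 9 kinesins (22.2%), beside 12.1%.

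Gene length moved with the sets as well. The median length was 49071.5 bp for axonal, 26935.5 bp for mitotic and 17364 bp for other genes, and the share linked in other genes rose from 27.4% under 10 kb to 61.6% at 100 kb or more. In genes of 30 to 100 kb, 7 of 9 axonal and 2 of 6 mitotic genes were linked, beside 47.5% of other genes. In genes of 10 to 30 kb, 3 of 5 mitotic genes were linked, beside 39.4%, and no axonal gene had that length. At 100 kb or more, 5 of 6 axonal genes and the 1 mitotic gene gave 83.3% and 0%, and under 10 kb the 1 axonal gene was linked and the 2 mitotic genes were not. Weighted to the lengths of each set, the share of other genes linked was 51.5% for the axonal, 42.7% for the mitotic and 47.6% for all kinesin genes. For a peak within 1 kb of a TSS the weighted shares were 37.4%, 31.7% and 34.9%, in the same order. The median number of annotated starts was 6 in the axonal and in the mitotic set, beside 3 in other genes, and more starts widen the windows. With 1 TSS per gene, 81.3% of axonal and 28.6% of mitotic genes were linked, beside 38.3% of other genes. Within 1 kb the shares were 68.8% and 28.6%, beside 24.6%. The part of length, CpG content or number of starts in these shares was not tested.

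**Figure D4:**
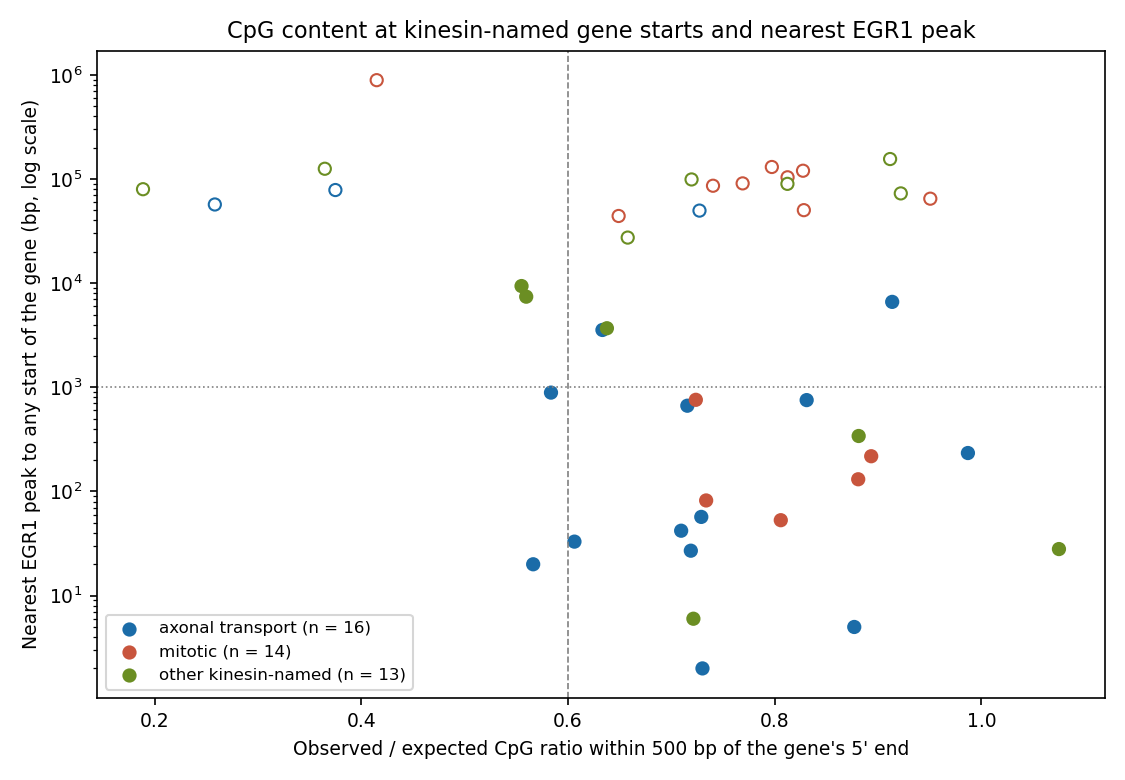
Distance in bp (log scale) from each of the 43 kinesin genes' starts to the nearest EGR1 peak against the observed to expected CpG ratio within 500 bp of the gene's 5′ end, filled where the gene is linked and open where it is not. Right of the dashed line at 0.6, 11 of 12 axonal and 5 of 13 mitotic genes are linked.

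Partner genes, a list of kinesin subunits, cargo adaptors, dynein and dynactin subunits and dynein regulators, were linked about as often as the axonal kinesins. This list too was chosen with earlier results of these data known. Of 36 partner genes, 31 were linked (86.1%, 71.3 to 93.9) beside 39.5% of other protein-coding genes, and 24 had a peak within 1 kb of a TSS (66.7%, 50.3 to 79.8) beside 28.1%. The partner and axonal sets are not fully separate, since the peak near the Dctn2 start is also the upstream peak of Kif5a. Of the 36, 31 had a CpG-rich start and 27 of these 31 were linked (87.1%), beside 58.9% of other genes with such a start. A peak within 1 kb of a TSS was found for 20 of the 31 (64.5%), beside 47.0%. At an IDR of 0.001 or less the linked share was 63.9%, beside 28.9%. Partner genes had a median of 7 annotated starts, beside 3 in other genes. With 1 TSS per gene 83.3% of them were linked, beside 38.3%. By role, all 5 kinesin subunits were linked (Klc1, Klc2, Klc3, Klc4 and Kifap3), as were 9 of 10 cargo adaptors, 6 of 8 dynein subunits, 7 of 8 dynactin subunits and 4 of 5 dynein regulators. The 5 with the lowest IDR within 1 kb of a TSS were Dync1li1, a dynein light intermediate chain (1.31e-08), Mapk8ip3, an adaptor of kinesin-1 (2.79e-08), Rhot2, which tethers mitochondria to motors (3.9e-08), Dynll1, a dynein light chain (6.65e-08), and Dctn6, a dynactin subunit (9.34e-08). The peaks of Dync1li1, Mapk8ip3 and Rhot2 had a lower IDR than any kinesin peak, the lowest of which was the 4.44e-08 of Kif21b. Not linked were Bicd1, Dctn5, Dync1i2, Dynlrb1 and Rhot1.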

How the data were processed

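EGR1 ChIP-seq was made from frontal cortex, and 1 list of peaks from 2 merged replicates was analysed. Per the study's methods, the authors aligned trimmed reads to mm10 (Bowtie), found peaks with SPP and kept those under an IDR limit. The submitters' processing notes list cutadapt, Bowtie2 2.2.9 and bedtools 2.26.0. The deposited values are peak positions and an IDR per peak, read like a q-value, from 3.59e-09 to 0.02. No read counts are in the list, so depth is unknown.

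Starts were read as in BED files. Peaks were linked to GENCODE M21 with Python 3.11.15, pandas 2.3.3, numpy 2.4.6 and pysam 0.24.0. Every annotated transcript start of a protein-coding gene counted as a TSS, also that of a noncoding transcript of the gene. Intervals are 95% Wilson intervals (scipy 1.17.1), and the Kifc1 and Kifc5b stretches were aligned locally with Biopython 1.88. Sequence is from GRCm38.p6, and 76 peaks on scaffolds were neither linked nor searched. Linking and motif search were first tested on simulated data. Members and lists, and the kinesin subfamilies, were chosen with earlier results of these data known. Every axonal and mitotic member was named, with other members that had a peak. Positions were given for members with a peak within 1 kb of a TSS or with 3 or more peaks. A gene outside the family was named where it shared a peak within 1 kb of its own TSS, or for the 5 lowest IDRs among partners. Alternatives were the linking rule, TSS choice, window, IDR limit, lists, background and motif. Leaving out peaks at other starts, counting starts from 1 and weighting by gene length were added after seeing the data.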

Additional observations from a re-analysis of the deposited data

How the results depend on the processing

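No paired analysis was possible because the replicates were merged into 1 list, and no replicate was left out. Depth is unknown, and with 16 and 14 genes the intervals are wide. With only peaks at an IDR of 0.001 or less, axonal kinesins linked came to 50%, axonal kinesins with a peak within 1 kb to 37.5%, partner genes to 63.9%, kinesin peaks to 25 and all peaks with the element to 21.9%, while other protein-coding genes came to 28.9% linked and 20.4% within 1 kb. With gene bodies alone, kinesin genes linked came to 34.9%, mitotic kinesins to 0%, partners to 61.1%, other genes to 23.8% and kinesin peaks to 22. The mitotic value is 0% because no mitotic peak lay in the body of the gene it was linked to. With 1 mismatch, 73.8% of kinesin peaks and 69.8% of all peaks held the element.

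The linked share of other protein-coding genes was 37.2% with start windows alone, 35.9% with 5 kb, 31.3% by nearest TSS, 38.3% with 1 TSS per gene, 37.0% at an IDR up to 0.01, 40.9% in genes between the shortest and the longest kinesin, a range that leaves most genes in, and 58.9% with CpG-rich starts. Weighted to the lengths of the kinesins, an alternative chosen after seeing the data, it was 47.6%. Their share with a near peak was 25.8% within 500 bp, 29.6% within 2 kb, 24.6% with 1 TSS per gene, 26.3% at an IDR up to 0.01 and 22.4% without peaks at another start, also chosen after seeing the data. Under every linking, window and IDR alternative the axonal share stayed above the mitotic share, for example 75% against 21.4% by nearest TSS. At an IDR up to 0.001 the distance narrowed to 50% against 35.7% linked, and to 37.5% against 28.6% within 1 kb of a TSS. The cause of that narrowing was not tested.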
